A study of Homo sapiens with 18 samples.

Results

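*TMEM273* (ENST00000374151), *CFAP161* (ENST00000286732) and *ANKRD62* (ENST00000418274) are 3 of the 13051 transcripts whose readthrough reads were counted in nascent RNA of K562 cells. They were chosen on measured values, for low readthrough reads after imatinib relative to untreated cells, so that their values in the untreated group CTRLim and in the imatinib groups are given below as a description, without a test. K562 is an established line from chronic myeloid leukemia in blast crisis, and its growth depends on the Bcr-Abl1 fusion kinase. The 18 libraries comprised 3 biological replicates in each of 6 groups. CTRL and CTRLim were untreated cells, and CTRLim was the control made alongside the imatinib samples. IM 1h and IM 18h were cells given 1 µM imatinib, an inhibitor of Bcr-Abl1, for 1 h or 18 h. JTE 1h was 1 h of 5 µM JTE-607, which inhibits the CPSF73 endonuclease, and KCl 45min was hyperosmotic shock by adding 110 mM KCl for 45 min. The groups share 1 cell line and 1 protocol of RNA preparation. RNA was taken from chromatin, depleted of poly(A)+ RNA and rRNA, and ligated to an adapter with a molecular identifier at its 3′ end. It was sequenced as PacBio long reads. The paper names the RS II and Revio instruments without saying which library ran on which.

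At the end of a gene, the nascent RNA is normally cut by the cleavage and polyadenylation complex, whose nuclease is CPSF73, shortly after RNA polymerase II has copied the polyadenylation signal, which is most often AAUAAA. When cleavage is slow or does not take place, the polymerase goes on into the intergenic region and the RNA reads through the gene end. A nascent long read that covers the last exon and ends beyond it is a record of such a polymerase. Imatinib shuts off the kinase that keeps STAT5 and the RAS to ERK pathway active in these cells, and prolonged exposure moves K562 toward erythroid gene expression. *CFAP161* encodes a cilia and flagella associated protein, *ANKRD62* a protein with ankyrin repeats, and *TMEM273* a predicted transmembrane protein.

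All positions are in GRCh38. The *TMEM273* transcript lies on the minus strand at chr10:49154725-49188400 with 7 exons, and its last exon is chr10:49154725-49156259. The *CFAP161* transcript lies on the plus strand at chr15:81134270-81149179 with 7 exons, and its last exon is chr15:81148338-81149179. The *ANKRD62* transcript lies on the plus strand at chr18:12102706-12129749 with 9 exons, its last exon is chr18:12127748-12129749, and the annotation gives it no coding sequence. Over 12704 transcripts matched to the annotation, the median number of exons was 7 and the median last exon was 1361 bases long, against 1535 bases in *TMEM273*, 842 in *CFAP161* and 2002 in *ANKRD62*.

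A read was counted when it overlapped the last exon and its 3′ end lay more than 100 bases past the exon end, so the count depends on the annotated end. Where the RNA of these genes is cut in K562 cells was not measured here. For *TMEM273* and *CFAP161* the last 30 bases of the exon are shown, and for all 3 genes the stretch from 21 to 100 bases past it that leads up to the boundary. Capitals mark AATAAA or ATTAAA, the commonest forms of the polyadenylation signal, searched on the transcribed strand. The sequences run 5′ to 3′ on the strand of the gene.
TMEM273, exon end, chr10:49154725-49154754: taaaccatcttgtatgggatctgctaattg
TMEM273, past the end, chr10:49154625-49154704: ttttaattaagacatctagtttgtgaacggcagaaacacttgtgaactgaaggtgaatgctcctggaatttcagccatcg
CFAP161, exon end, chr15:81149150-81149179: tgacaaAATAAAtgtatgtccttccatgta
CFAP161, past the end, chr15:81149200-81149279: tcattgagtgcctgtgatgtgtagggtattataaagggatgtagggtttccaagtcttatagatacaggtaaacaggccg
ANKRD62, past the end, chr18:12129770-12129849: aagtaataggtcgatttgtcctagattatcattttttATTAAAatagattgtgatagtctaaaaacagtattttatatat

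*CFAP161* held AATAAA, with 18 bases between it and the exon end. Neither hexamer occurred in the last 30 bases of *TMEM273*, and in *ANKRD62* an ATTAAA lay beyond the annotated end. Among the 12704 matched transcripts, 52.1% held AATAAA in their last 30 bases, 14.8% held ATTAAA and 65.0% held either. When the last exon and the 2000 bases after it were aligned to the genome, *TMEM273* and *CFAP161* matched their own place alone. *ANKRD62* had a second match on the minus strand of chr22:16669773-16673739, where the pseudogene *ANKRD62P1* is annotated, with an identity of 95.79% over 3992 aligned bases. The authors kept 1 alignment per read, and the assignment of reads between these copies could not be checked here, so the *ANKRD62* values below are uncertain in this respect.

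Levels are given as RPM, the readthrough reads per 1000000 library reads, where the library reads are those left after the study's filters. A library held between 8422 and 57982 readthrough reads, and the median transcript had 10 over the 18 libraries. *CFAP161* had 422 reads over the 18 libraries, *ANKRD62* 109 and *TMEM273* 81. In RPM, 1 read weighed between 2.44 and 3.87 in the CTRL libraries, 1.85 and 4.35 in CTRLim, 1.25 and 1.74 in IM 1h, and 0.741 and 1.06 in IM 18h, so the 18-h libraries were the deepest of these. The share of raw reads that mapped was 40.5 to 44.1% in CTRL, KCl and JTE and 84.3 to 91.6% in CTRLim and imatinib, and treatment and library set cannot be told apart between these sets. The paper lists shorter median read lengths in most CTRL, KCl and JTE libraries than in the imatinib libraries, and none under CTRLim. A read must reach from the last exon past the boundary to be counted. Read length was not taken into account here. Of 10 markers of K562, 9 were in the table and all 9 had readthrough reads in untreated cells, led by the fetal globin gene *HBG1* with 4159 reads over the 18 libraries. Of 7 markers of other blood lineages, 3 were in the table, with at most 1 read each.

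**Figure D1:**
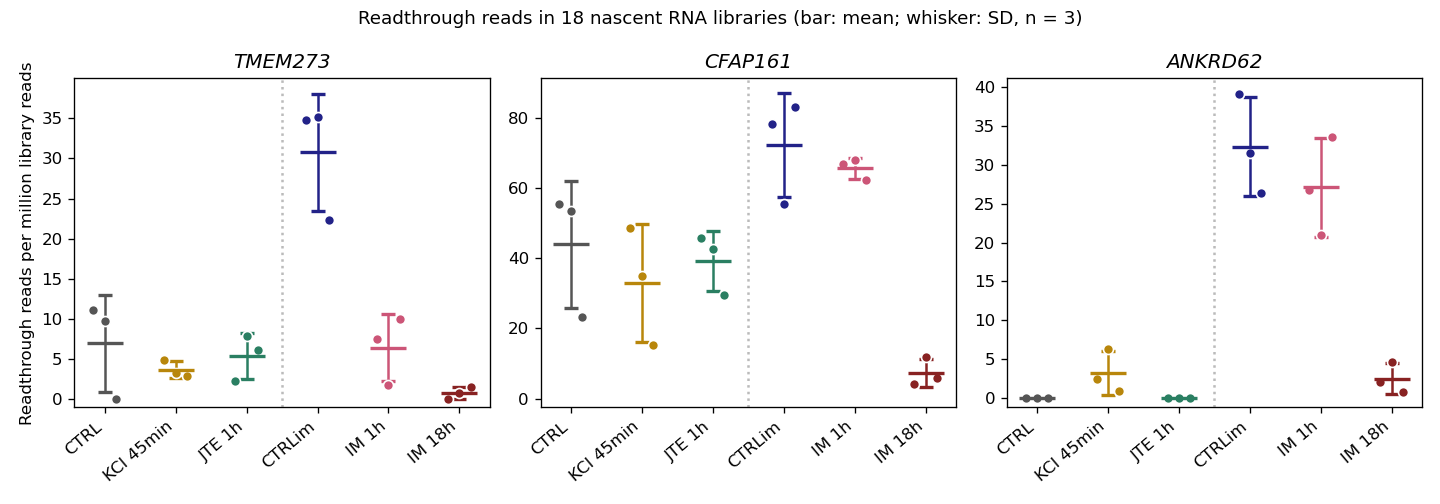
Readthrough reads in RPM (y axis) of TMEM273, CFAP161 and ANKRD62 in each of the 18 libraries (points), grouped on the x axis, with the mean (bar) and SD (whisker) of 3 libraries; the dotted line separates the 2 library sets. TMEM273 was low at both imatinib times, whereas CFAP161 and ANKRD62 stood near CTRLim at 1 h and were low at 18 h, and ANKRD62 had no read in CTRL or JTE 1h.

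*TMEM273* was low after 1 h of imatinib already. The CTRLim libraries held 8, 19 and 11 reads, or 34.8, 35.2 and 22.3 RPM, with a mean of 30.8 ± 7.31 RPM (SD, n = 3). The IM 1h libraries held 5, 1 and 8 reads, or 7.43, 1.74 and 9.97 RPM, with a mean of 6.38 ± 4.21. The IM 18h libraries held 0, 1 and 2 reads, or 0, 0.783 and 1.48 RPM, with a mean of 0.755 ± 0.741. Every library of IM 1h and of IM 18h was below every CTRLim library, and IM 18h replicate 1 alone was at 0. Of the pooled CTRLim level, 22.7% was left at 1 h, with a 95% counting interval of 11.4 to 42.9%, and 2.79% at 18 h, with an interval of 0.552 to 8.81%. These intervals are exact conditional binomial intervals of the ratio of summed reads and, like all intervals of this kind below, cover counting error only. Leaving out 1 library in turn gave 16 to 29.3% at 1 h. The 18-h value rests on 3 reads. It was 1.5% without IM 18h replicate 3 and 3.79% without IM 18h replicate 1. Between 1 h and 18 h, from 14 to 3 reads, the level went to 12.3% of that at 1 h (interval 2.27 to 44.1%), or to 6.6% without IM 18h replicate 3 and 17.5% without IM 1h replicate 3, and the highest 18-h library lay just below the lowest 1-h library, which held 1 read.

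*CFAP161* was nearly unchanged in level at 1 h and low at 18 h. Its CTRLim libraries held 18, 30 and 41 reads, or 78.3, 55.5 and 83.3 RPM, with a mean of 72.4 ± 14.8. Its IM 1h libraries held 45, 39 and 50 reads, or 66.9, 68.0 and 62.3 RPM, with a mean of 65.7 ± 3.04. Its IM 18h libraries held 4, 15 and 8 reads, or 4.26, 11.7 and 5.93 RPM, with a mean of 7.31 ± 3.93. The 1-h values lay inside the range of CTRLim, and the 18-h values lay below both groups without overlap. Of the CTRLim level, 92.8% was left at 1 h (interval 70.4 to 122.7%) and 10.7% at 18 h (interval 6.71 to 16.7%). IM 18h replicate 2 was the highest of its group, and without it the share left at 18 h was 7.43%. Leaving out any 1 library gave 80.0 to 104.9% at 1 h and 7.43 to 12.4% at 18 h.

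*ANKRD62* followed the timing of *CFAP161*. Its CTRLim libraries held 9, 17 and 13 reads, or 39.2, 31.5 and 26.4 RPM, with a mean of 32.4 ± 6.42. Its IM 1h libraries held 18, 12 and 27 reads, or 26.7, 20.9 and 33.6 RPM, with a mean of 27.1 ± 6.36. Its IM 18h libraries held 2, 6 and 1 reads, or 2.13, 4.70 and 0.741 RPM, with a mean of 2.52 ± 2.01. The 1-h group overlapped CTRLim, and all 18-h libraries were below all libraries of both. Of the CTRLim level, 90.0% was left at 1 h (interval 58.9 to 139.0%) and 8.17% at 18 h (interval 3.48 to 17.1%). Without IM 18h replicate 2, which held 6 of the 9 reads, 4.24% was left at 18 h, the lowest of 4.24 to 11.7% over the libraries left out, with 77.9 to 98.7% at 1 h.

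**Figure D2:**
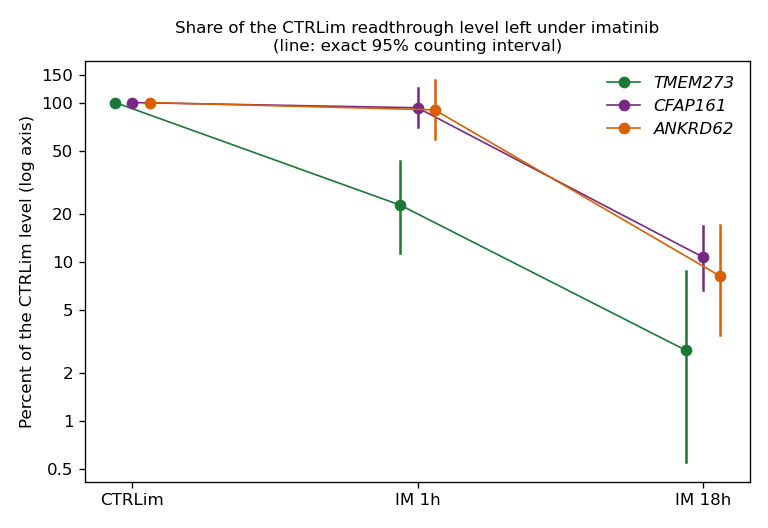
Share of the pooled CTRLim readthrough level (y axis, percent, log axis) in CTRLim, IM 1h and IM 18h (x axis) for the 3 genes (points), with exact 95% counting intervals (vertical lines). At 1 h TMEM273 stood at 22.7%, CFAP161 at 92.8% and ANKRD62 at 90.0%, and at 18 h they stood at 2.79%, 10.7% and 8.17%.

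The difference in timing between the genes is a description of the values they were chosen on and was not tested. Each gene kept some reads at 18 h. *CFAP161* and *ANKRD62* had at least 1 read in every 18-h library, and *TMEM273* had 0, 1 and 2. At this depth, a library with 0 reads and a library with 1 do not separate complete from incomplete loss. In bulk RNA, fewer cells that transcribe a gene and less RNA per cell cannot be told apart. Reads that ended within the genes were not used here, so less transcription of a gene and more complete cleavage at its end cannot be told apart either.

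The place of these genes among all transcripts was as follows, as a description of the contrasts they were chosen on. A negative binomial fit (edgeR) of IM 18h against CTRLim covered 1386 transcripts with at least 30 reads over the 6 libraries. *TMEM273* had the lowest log2 fold change of all of them (-4.93, SE 0.584), *ANKRD62* the second lowest (-3.54, SE 0.482) and *CFAP161* the fifth lowest (-3.22, SE 0.359), where the median was -0.01. Of these transcripts 14.1% passed an adjusted p of 0.05 in either direction, and 18.4% had all IM 18h libraries below all CTRLim libraries. At 1 h, over 988 transcripts with a median of 0.19, *TMEM273* had a log2 fold change of -2.11 (SE 0.434), the fifth lowest. *CFAP161* stood at -0.11 (SE 0.229) and *ANKRD62* at -0.16 (SE 0.325). At 1 h, 1.52% of the transcripts passed the same threshold and 5.47% had all IM 1h libraries below all CTRLim libraries. These fits share the CTRLim libraries. In IM 18h against IM 1h, which shares the 18-h libraries with the first of them, the log2 fold change was -3.39 (SE 0.45) in *ANKRD62* and -3.10 (SE 0.296) in *CFAP161*. These were the second and the third lowest of 1720 transcripts, and 26.3% of the 1720 had all IM 18h libraries below all IM 1h libraries. *TMEM273*, with 14 and 3 reads, had too few for that fit.

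The 2 untreated groups stood apart in all 3 genes, and furthest in *ANKRD62*. In *ANKRD62* no read was found in any CTRL library, against 9, 17 and 13 reads in CTRLim. With a floor of 3 reads over the CTRL group, or 2.91 RPM, the CTRLim level was at least 10.6-fold higher. Among the 3208 transcripts without a read in the CTRL and JTE 1h libraries, *ANKRD62* alone had 10 or more reads in CTRLim. The next had 7. This set was defined by groups in which *ANKRD62* itself had no read. The KCl libraries, of the same library set, were left out of the condition, and *ANKRD62* had 4 reads there. The choice of the gene also used CTRLim, so its place in this set is a description only.

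In *TMEM273* the CTRL libraries held 4, 4 and 0 reads, or 11.1, 9.75 and 0 RPM, with a mean of 6.95 ± 6.05. CTRLim was 3.88-fold higher (interval 1.78 to 9.62), and between 2.90 and 5.04-fold higher when 1 library was left out. The IM 1h level of 6.83 RPM, pooled, was near the pooled CTRL level of 7.77 RPM, although it was 22.7% of CTRLim. *CFAP161* had 20, 22 and 6 reads in CTRL, or 55.4, 53.6 and 23.2 RPM, with a mean of 44.1 ± 18.1. CTRLim was 1.51-fold higher (interval 1.05 to 2.2), and the lowest CTRLim library stood at 55.548 RPM beside 55.445 in the highest CTRL library.

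**Figure D3:**
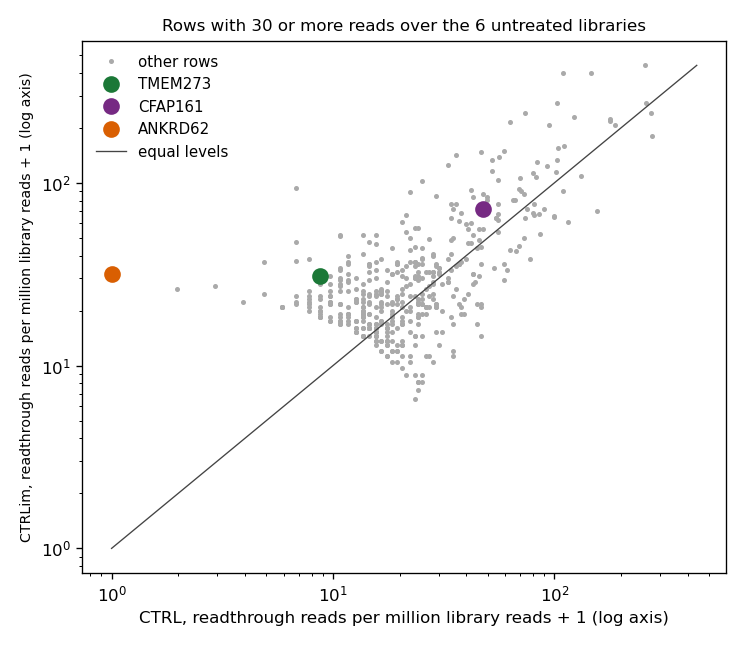
Pooled readthrough level in CTRL (x axis) against CTRLim (y axis), both in RPM plus 1 on log axes, for 472 transcripts with at least 30 reads over the 6 untreated libraries (grey points; line: equal levels). ANKRD62 lies at the left edge with no read in CTRL, TMEM273 lies above the line by 3.88-fold and CFAP161 by 1.51-fold.

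All CTRLim libraries lay above all CTRL libraries in each of the 3 genes, which held for 25.8% of the 472 transcripts with at least 30 reads over these 6 libraries. The median transcript was 0.31 higher in CTRLim on the log2 scale, against 1.93 (SE 0.571) in *TMEM273* and 0.65 (SE 0.364) in *CFAP161*. All CTRLim libraries also lay above all 9 libraries of CTRL, KCl and JTE in each of the 3 genes, which held for 5.81% of 1790 transcripts, though for *CFAP161* this rested on the difference of 55.548 and 55.445 RPM. The choice of the genes used CTRLim, so a high CTRLim level was favored by it. With CTRL in place of CTRLim, across the library sets, the 1-h values were near or above the control. *CFAP161* was 1.40-fold higher at 1 h (interval 1.00 to 1.99) and at 16.2% of CTRL at 18 h (interval 9.74 to 26.6%). *TMEM273* was at 88.0% at 1 h (interval 34.4 to 242.0%) and at 10.8% at 18 h (3 against 8 reads, interval 1.85 to 45.1%), or at 5.80% without IM 18h replicate 3. *ANKRD62* at 1 h was 9.55-fold above the CTRL floor, which is not a lower bound of the change. At 18 h the pooled *ANKRD62* level of 2.52 RPM was under the CTRL floor of 2.91 RPM, and no fold is given.

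The JTE-607 and KCl libraries were not used in the choice of the genes, and they belong to the same library set as CTRL, so tests here were not tied to the choice. *CFAP161* had enough reads for the fit. For *TMEM273* and *ANKRD62* permutation tests were used, whose smallest p with 3 against 3 libraries is 0.1, so these could not pass 0.05. JTE-607 blocks the cleavage that ends a transcript. In *CFAP161* the JTE 1h libraries held 21, 22 and 34 reads, or 45.7, 42.8 and 29.6 RPM (mean 39.4 ± 8.56). The log2 fold change against CTRL was -0.21 (SE 0.516, 95% interval -1.26 to 0.84), with an adjusted p of 0.886 in the quasi-likelihood test of edgeR over 969 transcripts, where the median was 0.49. In *TMEM273* the JTE 1h libraries held 1, 4 and 7 reads, or 2.18, 7.78 and 6.10 RPM (mean 5.35 ± 2.88), and the groups overlapped, with an exact two-sided permutation p of 0.7. *ANKRD62* had no read in any JTE 1h library, a level for which 3 reads would be 1.41 RPM. *CFAP161* missed the threshold in DESeq2 too (adjusted p of 0.958). Of all transcripts tested, 0.103% passed, that is 1.

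After KCl, *CFAP161* held 20, 11 and 16 reads, or 48.7, 35.0 and 15.2 RPM (mean 33.0 ± 16.9). The log2 fold change was -0.53 (SE 0.516, 95% interval -1.56 to 0.50), with an adjusted p of 0.516 in the same edgeR test over 378 transcripts, of which 25.1% passed and whose median was -0.39. The adjusted p was 0.676 in DESeq2. The log2 fold change was -0.10 without KCl 45min replicate 3, -0.34 without CTRL replicate 1, -0.99 without KCl 45min replicate 1 and -0.81 without CTRL replicate 3, and none of these passed. *TMEM273* held 2, 1 and 3 reads, or 4.87, 3.19 and 2.84 RPM (mean 3.63 ± 1.08), inside the range of CTRL, with an exact permutation p of 0.4. *ANKRD62* held 1, 2 and 1 reads, or 2.44, 6.37 and 0.947 RPM (mean 3.25 ± 2.80), where CTRL had none. The exact permutation p was 0.1, the smallest that 3 against 3 libraries allow, and 2.93% of the 9247 transcripts with any read in these libraries had all KCl above all CTRL libraries. The 6 permutation tests over both treatments gave Benjamini-Hochberg adjusted values of 0.6 for *ANKRD62* after KCl, 1.0 for *ANKRD62* after JTE-607 and 0.84 for the others. The test of *ANKRD62* after JTE-607 set 0 reads against 0, so its outcome was fixed and it tells nothing.

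The counted transcripts nearest to the 3 genes had between 0 and 64 readthrough reads over the 18 libraries. Downstream of *TMEM273* on its strand, *FAM170B* begins 20704 bases away and had 3 reads in all libraries together. The antisense gene *FAM170B-AS1* ends 3178 bases past the *TMEM273* end on the other strand and has no count of its own here. Whether strand was used when reads were assigned is not given in the sources used here, so readthrough RNA of *TMEM273* and RNA of this gene may not be separate. Upstream, *C10orf71* had 33 reads, of which 17 were in IM 18h and 3 in CTRLim, and none of its comparisons reached the minimum for a test.

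Downstream of *CFAP161* on the same strand, the gene *IL16*, which encodes a cytokine, begins at 10396 bases, and its counted transcript had 14 reads, of which 2 were in CTRLim and 2 in IM 18h. *TLNRD1*, upstream, had 30 reads, with 3 in CTRLim and 3 in IM 18h. *ANKRD62* has no protein-coding gene on its strand within 124612 bases downstream, where *CIDEA* begins. Its nearest counted transcripts were *IMPA2* upstream with 0 reads, *AFG3L2* downstream on the other strand with 64 and *PRELID3A* with 2. Of these neighbors *AFG3L2*, a subunit of a mitochondrial protease, was the one with enough reads for a test, in JTE 1h against CTRL, where the log2 fold change was 1.24 (SE 0.936, adjusted p of 0.647 in edgeR).

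Over the 18 libraries, *TMEM273* and *CFAP161* varied together more than either did with *ANKRD62*. The Pearson correlation of log2 RPM, with 0.5 reads added, was 0.81 between *TMEM273* and *CFAP161*, 0.49 between *CFAP161* and *ANKRD62* and 0.44 between *TMEM273* and *ANKRD62*, where the median over 3480 transcripts with at least 30 reads was 0.09 to 0.10. These libraries share treatments, depth and library set, and the correlations are a description. The 5 most similar transcripts to *TMEM273* were *ACRBP* (0.818), an acrosin binding protein, *MT1X* (0.809), a metallothionein, *CFAP161*, the ribosomal protein gene *FAU* (0.770) and *ZBTB47* (0.769). For *CFAP161* they were *ACRBP* (0.808), *TMEM273*, *NOMO1* (0.796), the nuclear import receptor *TNPO3* (0.793) and the glycolytic enzyme *TPI1* (0.780).

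The 5 transcripts most like *ANKRD62* were *ZNF420* (0.851), *S100A6* (0.843), *CD53* (0.840), *HSPA8* (0.838) and *TAF11L5* (0.825). *S100A6*, a calcium binding protein, had 1 read in CTRL, 2 in KCl and 0 in JTE 1h, then 23 in CTRLim, 31 in IM 1h and 11 in IM 18h. *CD53*, a tetraspanin of leukocytes, had 0, 0 and 2 reads in the first set and 14, 13 and 6 in the second. *TAF11L5* had 2, 2 and 4 against 24, 35 and 5, and belongs to a family of near copies, so its reads are uncertain too. *HSPA8*, the constitutive HSP70 chaperone, was well covered in both sets, with 85 reads in CTRL and 162 in CTRLim. These transcripts were picked for their likeness to *ANKRD62* over the same libraries, so their sharing its pattern follows from the choice.

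**Figure D4:**
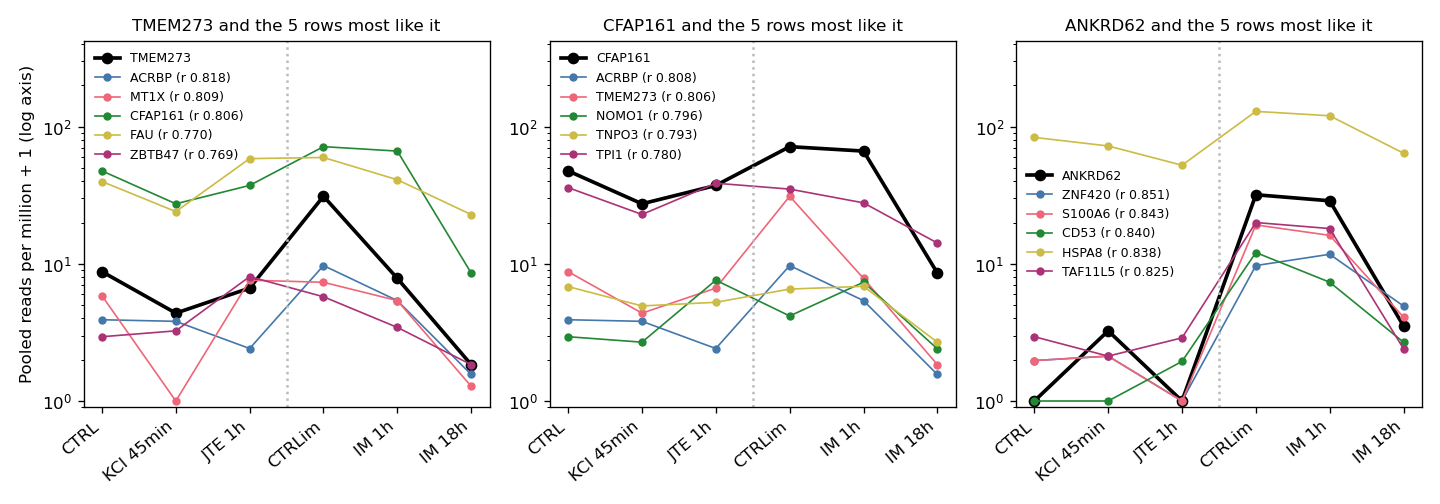
Pooled readthrough level in RPM plus 1 (y axis, log axis) in the 6 groups (x axis) for each gene (black) and the 5 transcripts with the highest Pearson r to it (colored; r in the legend); the dotted line separates the library sets. The 5 transcripts like ANKRD62 and the 5 like TMEM273 were all higher in CTRLim than in CTRL, as were those like CFAP161 except TNPO3 and TPI1. Those like TMEM273 and CFAP161 had their lowest or second lowest level in IM 18h.

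The timing of STAT5 target genes is given beside these values. The list was chosen with earlier results of these data known, so its calls are a description and no independent yardstick. Of 15 STAT5 target genes, 6 could be tested at 1 h against CTRLim, and 3 fell in edgeR and in DESeq2, with none higher (median log2 fold change -2.09, against 0.19 over all transcripts, of which 1.52% passed). They were *PIM1*, a survival kinase (-3.50, SE 0.346, adjusted p of 1.0e-20 in edgeR), *CISH*, a feedback inhibitor of STAT5 signaling (-3.57, SE 0.491), and *ID1*, an inhibitor of differentiation (-4.07, SE 0.533). At 18 h 5 of 6 fell in edgeR and 4 in DESeq2 (median -1.51, against -0.01 over all transcripts, of which 14.1% passed), with *MYC* (-1.24, SE 0.282) and *MCL1* (-1.18, SE 0.412) besides. *PIM1* stood at 79.8 ± 2.74 RPM in CTRLim, 6.55 ± 2.98 at 1 h and 22.4 ± 8.52 at 18 h, and *CISH* at 37.8 ± 5.72, 2.82 ± 1.00 and 7.18 ± 5.54. *ID1* stood at 35.8 ± 9.98, 2.15 ± 1.88 and 2.99 ± 0.798. The *PIM1* and *CISH* means were thus higher at 18 h than at 1 h, and that of *ID1* only slightly. Those of *TMEM273*, *CFAP161* and *ANKRD62* were lower. In CTRL, *PIM1* stood at 68.55 ± 23.3 RPM, *CISH* at 23.7 ± 3.89 and *ID1* at 5.91 ± 7.15, so *ID1* too was well above CTRL in CTRLim. None of 13 ERK target genes in the table reached 30 reads in the imatinib comparisons. After KCl, where 25.1% of all transcripts passed and 79 of the 95 that did were lower, 2 of 4 STAT5 targets tested fell (*PIM1* -3.49 and *MYC* -4.68) and the ERK target *EGR1* rose (4.69, SE 0.914), and after JTE-607 none of 5 STAT5 targets passed in edgeR or DESeq2, or before adjustment.

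Few genes that share a name prefix with the 3 could be tested. None of 22 other *CFAP* transcripts had enough reads for a test in any comparison. Of 40 other *ANKRD* transcripts, 2 were tested at 1 h and 5 at 18 h of imatinib, and none passed in edgeR or DESeq2, with 1 and 0 at an unadjusted p under 0.05. Of 171 other *TMEM* transcripts, 11 were tested at 1 h and none passed in edgeR or DESeq2, with 2 at an unadjusted p under 0.05. At 18 h 17 were tested and *TMEM107* fell (-1.40, SE 0.371, adjusted p of 0.00695 in edgeR), beside 14.1% of all transcripts. After KCl 4 were tested, of which 2 fell and 1 rose, *TMEM107* (1.80, SE 0.563, adjusted p of 0.0135 in edgeR), beside 25.1% of all transcripts, and after JTE-607 none of 9 passed in edgeR or DESeq2, with 2 at an unadjusted p under 0.05. Their medians were 0.05 at 18 h for *TMEM* and 0.19 for *ANKRD*, near the -0.01 of all transcripts. In the same 18-h libraries, the K562 markers *HBG1* (1.21, SE 0.217), *HBE1* (0.82, SE 0.215) and *TAL1* (0.95, SE 0.297) rose in edgeR, and no marker tested fell. The part of these changes in the low levels of the 3 genes was not tested.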

How the data were processed

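Readthrough reads of nascent RNA were measured in 18 K562 libraries, 3 in each of 6 groups. The deposited values are whole-number counts, neither normalized nor pooled. The authors trimmed adapters with cutadapt, mapped reads with minimap2 to GRCh38.p14, removed duplicates by molecular identifier, and discarded polyadenylated reads, splicing intermediates and reads whose name occurred more than once. Each remaining read was intersected with the last exon of 1 transcript per gene and counted when its 3′ end lay more than 100 bases past it, and no read was counted for more than 1 gene. To avoid false readthrough, the authors took for each gene the transcript whose annotated end lay furthest downstream. An end that lies beyond the annotated one could still change a count.

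Library sizes were the reads left after these filters, as the study lists them. The 13051 transcripts were matched to GENCODE 44 by identifier, which found 12704. edgeR 4.0.16 (glmQLFit, glmQLFTest; R 4.3.3) was fitted to the 6 libraries of a comparison, for transcripts with at least 30 reads, with Benjamini-Hochberg adjustment over all of them and a threshold of 0.05. In simulated counts with 200 transcripts changed by a log2 fold change of 2, it called 77.0% of them for IM 1h against CTRLim (988 transcripts), 59.5% for IM 18h (1386), 84.5% for KCl (378) and 69.0% for JTE 1h (969). Of the unchanged transcripts it called 8, 3, 3 and 11, in the same order. The simulation used a single dispersion for all transcripts that was not taken from the data, so these shares do not give the power in the real libraries. RPM were compared with exact permutation tests (scipy 1.17.1). Copies were searched with minimap2 2.31-r1302.

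The genes, lists, comparisons and alternatives were chosen with earlier results of these data known. Named are the 3 genes, their neighbors, the 5 transcripts most correlated with each, and called genes of fixed lists. Some items are not reported here. Replicates are called biological by the labels, and same-numbered libraries were not taken as paired. Alternatives were TMM, other library totals, DESeq2 1.42.0, minimums of 10 reads or none, all 18 libraries in the fit, a replicate block, other controls and leaving out each library.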

Additional observations from a re-analysis of the deposited data

How the results depend on the processing

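The low level of all 3 genes at 18 h kept its direction under every alternative run, between -5.59 and -4.27 on the log2 scale for *TMEM273*, -3.73 and -2.58 for *CFAP161* and -4.39 and -2.63 for *ANKRD62*, as did that of *TMEM273* at 1 h (-2.59 to -1.50). CTRL in place of CTRLim was not among these runs for *TMEM273* at either time or for *ANKRD62* at 18 h, which had too few reads for that fit. Nor was leaving out CTRLim replicate 2 for *TMEM273* at 18 h, since that library held 19 of the 38 CTRLim reads. By summed reads, leaving out any 1 library gave 1.5 to 3.79% of CTRLim there. By summed reads, *TMEM273* at 1 h was at 88.0% of CTRL, and *ANKRD62* at 18 h had 9 reads where CTRL had 0. The 1-h values of *CFAP161* and *ANKRD62* turned positive with other controls. *CFAP161* was 0.51 with CTRL as control, 0.16 with all 6 untreated libraries and 0.06 without CTRLim replicate 3 (range leaving out 1 library -0.32 to 0.06). *ANKRD62* was 6.84 with CTRL, a fitted value against libraries at 0, and 0.72 with all 6 untreated libraries. *TMEM273* after JTE-607 differed from CTRL by 0.479 RPM without CTRL replicate 1 and by -5.07 RPM without CTRL replicate 3, against -1.59 with all libraries. *TMEM273* and *ANKRD62* had too few reads for the fit after KCl and JTE-607, so alternatives of the fit had no reference value there. TMM moved the median transcript from 0.19 to 0.00 (IM 1h), -0.01 to 0.09 (IM 18h), -0.39 to 0.05 (KCl) and 0.49 to 0.09 (JTE 1h).

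Counts of called transcripts moved. For IM 1h, 15 became 4 with DESeq2, 9 with no minimum, 5 with all 18 libraries and 8 to 22 leaving out 1. For IM 18h, 196 became 96 with DESeq2, 113 with all 18 and 116 to 189 leaving out 1. For KCl, 95 became 63 with DESeq2, 256 with a minimum of 10 and 41 to 75 leaving out 1. For JTE 1h, where 108 transcripts had an unadjusted p under 0.05, 1 became 0 with TMM, the readthrough total or no minimum, 30 with all 18 and 0 to 69 leaving out 1 (69 without JTE 1h replicate 1). The replicate block gave 10, 195, 100 and 4 and a *CFAP161* change of -0.12 after JTE-607 (adjusted p of 0.955, edgeR). Same-numbered libraries correlated by -0.02 to 0.10 in the imatinib comparisons and -0.01 to 0.30 in the others. In the KCl and in the JTE-607 comparison, 2 of these correlations were over 0.1, so a shared replicate structure there remains possible. They were not paired in the main fits. With the replicate block, the *CFAP161* change after KCl was -0.44 (adjusted p of 0.511, edgeR). The causes were not tested. With 3 and 9 reads, *TMEM273* and *ANKRD62* at 18 h are limited by depth.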
